A study of Mus musculus with 10 samples.

Results

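Heat shock genes encode molecular chaperones, and 10 of them were followed in the spleens of DUSP6 KO and WT mice with KRN serum-induced arthritis (KSIA). The 10 genes are Hspb1, Hspa1a, Hspa1b, Hspa8, Hsph1, Bag3, Dnajb1, Hsp90aa1, Hspd1 and Hspe1, out of 54532 genes in the deposited table. The list was selected on measured values: Hspb1 was chosen by its difference between KO and WT, for which the study lists it among genes with lower expression in DUSP6 KO spleens, and the other 9 were set beside it as cytosolic or mitochondrial heat shock genes. The difference between KO and WT in these genes is therefore given as a description, with no p for any member; counts of members are printed beside the share of all genes, and nothing is read from them.

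The study sequenced poly(A) RNA of 10 whole spleens, with 1 library per mouse and no pooling of animals. The 5 DUSP6 KO mice carried the Dusp6tm1Jmol allele (the labels write knockdown), and the 5 WT mice were C57BL/6; both were bought from the Jackson Laboratories. Every mouse received 100 µL of pooled arthritogenic serum intraperitoneally on days 0 and 2, and spleens were taken on day 9, at the peak of arthritis. No mouse without serum was sequenced, so the values compare genotypes under arthritis and do not measure a response to arthritis. Differences between the bought lines other than Dusp6 cannot be told apart from the KO. The labels name mice of both sexes, and every library had at most 0.0206 FPKM of Xist and at least 14.4 FPKM of Ddx3y, the pattern of males. Replicates are named by the animal numbers of the labels.

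Chaperones bind unfolded proteins, keep them from aggregating and help them to fold. When cells are heated or otherwise stressed, heat shock factor 1 (HSF1) binds inverted repeats of the letters GAA in front of chaperone genes, the heat shock elements, and raises their transcription. In lymphoid tissue the constitutive chaperones are abundant at all times, while the inducible HSP70 genes are known to react to fever, to activation of cells and to the handling of tissue.

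Letters of heat shock elements were searched in the 250 bases before the transcription start of the members. A match of letters does not show that HSF1 binds there. Promoters from RefSeq (GRCm38.p6) were matched for 8 of the 10 members by symbol; Hspa8 and Hsp90aa1 were not matched. Both strands were searched for 2 facing units, GAANNTTC or TTCNNGAA, which can overlap each other in a longer run. Among 32851 promoters in the RefSeq table, 12.8% held at least 1 such match before the start and 0.466% held a run of 3 facing units. With the start nearest to the deposited gene end, 5 of the 8 members held a match (Hspb1, Hspa1a, Hspa1b, Hsph1 and Hspe1). The stretches below are printed 5′ to 3′ on the strand of the gene, with the GAA and TTC units of the matches in capitals.

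Hspb1, chr5:135887801-135887830, plus strand, bases -118 to -89 from the start: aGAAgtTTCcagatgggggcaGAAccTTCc
Hspa1a, chr17:34972242-34972271, minus strand, bases -115 to -86: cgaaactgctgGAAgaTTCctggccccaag
Hspa1b, chr17:34959324-34959353, minus strand, bases -115 to -86: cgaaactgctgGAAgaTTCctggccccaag
Hsph1, chr5:149636351-149636380, minus strand, bases -44 to -15: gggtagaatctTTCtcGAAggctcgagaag
Hspe1, chr1:55088053-55088082, plus strand, bases -95 to -66: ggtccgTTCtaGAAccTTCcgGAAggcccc

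Hspb1 held 2 separate matches, Hspa1a, Hspa1b and Hsph1 held 1 each, and Hspe1 held a run of 4 units in 3 overlapping matches. The Hspe1 run lies in the DNA that Hspe1 shares with Hspd1, which is transcribed the other way: it is upstream of Hspe1 and in the first exon, in the 5′ UTR, of a Hspd1 transcript that starts further out. Counted from the other RefSeq start of Hspd1, the same run is upstream, and 6 of the 8 members then held a match. The Hsph1 stretch lies before the RefSeq start and mostly within the first exon of the GENCODE M21 transcript that starts furthest upstream. The stretches of Hspa1a and Hspa1b were identical, and their 250 bases before the start differed at 3 positions (98.8% identity). Bag3 and Dnajb1 had no match, which says only that these letters are not in this window.

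On GRCm38, the build of the coordinates in the table, Hspb1 (ENSMUSG00000004951) is at chr5:135887919-135889563 and Hsph1 (ENSMUSG00000029657) at chr5:149614287-149636376. Hspa1a (ENSMUSG00000091971) at chr17:34969190-34972156 and Hspa1b (ENSMUSG00000090877) at chr17:34956436-34959238 are genes of 1 exon each that lie side by side. Hspa1a overlaps Gm20481, a protein-coding gene annotated on the plus strand, by 2225 bases, and Gm20481 was at 0 FPKM. Hspd1 (ENSMUSG00000025980, chr1:55077835-55088243) and Hspe1 (ENSMUSG00000073676, chr1:55088132-55091307) face away from each other and overlap by 112 bases. The remaining members are Hspa8 (ENSMUSG00000015656, chr9:40800984-40810087), Bag3 (ENSMUSG00000030847, chr7:128523616-128546981), Dnajb1 (ENSMUSG00000005483, chr8:83608193-83612653) and Hsp90aa1 (ENSMUSG00000021270, chr12:110690605-110702728). All 10 are protein-coding genes.

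The libraries held 14990474 to 19822673 reads in genes, and no member was at or under 3 reads in any library; the lowest was Hspa1a with 16 reads in KO 73. Values are FPKM, read counts divided by gene length and by the size of the library, as the authors deposited them. The length is 1 value per gene (7266 bases for Hsph1, which has 11 annotated transcripts). Levels can be compared between genes only as far as that length matches the transcripts present. Errors after ± are SDs over the 5 mice of a group. Dusp6, the targeted gene, was at 0.308 to 0.624 FPKM in the KO mice and at 16.6 to 23.98 FPKM in the WT mice, as the labels of all 10 libraries say.

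Hspa8, the constitutive HSP70 of the cytosol, had the highest level of the 10 members, with a mean of 390 FPKM over the 10 mice. Hsp90aa1, the inducible HSP90, followed with 159 FPKM, then Hspd1 with 110 FPKM and Hspe1 with 75.6 FPKM, the chaperonin and cochaperonin of the mitochondrial matrix. Dnajb1, a J-domain protein that brings substrates to HSP70 and starts its ATP cycle, had 23.4 FPKM. Hspb1, a small heat shock protein that holds unfolded proteins without using ATP, had 18.6 FPKM. Hsph1, an HSP110 that exchanges the nucleotide of HSP70 and dissolves aggregates with it, had 14.8 FPKM, and Bag3, a cochaperone that links HSP70 and small heat shock proteins to autophagy, had 6.93 FPKM. Hspa1b and Hspa1a, the inducible HSP70 genes, were lowest with 2.83 and 0.914 FPKM.

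In the order of the levels, 7 of the 9 neighbouring pairs differed beyond their spread. In those pairs the higher gene led in 9 or 10 of the 10 mice, with an adjusted p of 0.0029 to 0.0050 by a two-sided exact sign-flip permutation test of the paired log2 differences (9 pairs, Benjamini-Hochberg). The exceptions were Dnajb1 over Hspb1, which held in 7 of 10 mice (adjusted p = 0.21, same exact test), and Hspb1 over Hsph1, which also held in 7 of 10 (adjusted p = 0.21). The place of Hspb1 pools genotypes with different means: in WT its mean of 24.9 FPKM was above that of Dnajb1 (22.5 FPKM), and in KO its mean of 12.2 FPKM was just below that of Hsph1 (12.4 FPKM). The mice with Hspb1 above Dnajb1 were WT 65, WT 67 and WT 73. The sign-flip test measures the spread between mice. It does not cover an error of gene length, or reads shared between similar or overlapping genes, that is alike in all mice.

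**Figure D1:**
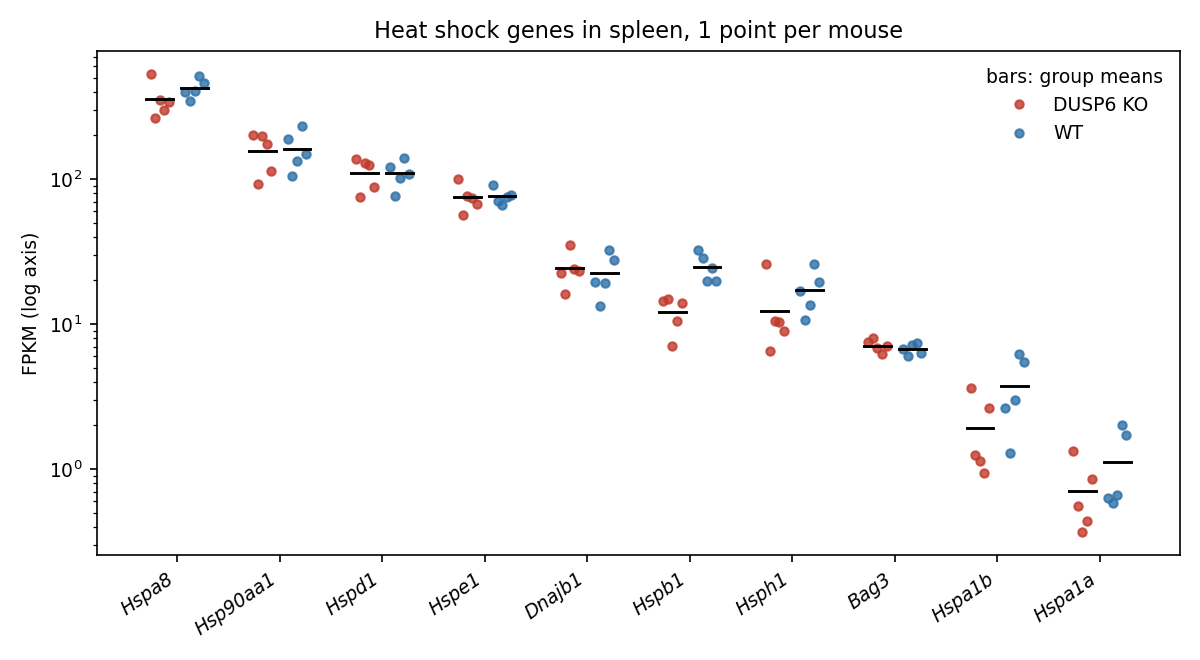
Level of each heat shock gene in FPKM (log axis) in the spleens of 5 DUSP6 KO mice (red) and 5 WT mice (blue), 1 point per mouse, with black bars at the group means and genes ordered by mean level. Hspb1 is the gene whose KO points (7.08 to 14.9 FPKM) all lie below the WT points (19.7 to 32.3 FPKM); in the other 9 genes the groups overlap.

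Hspb1 was at 14.4, 14.9, 7.08, 10.6 and 14.1 FPKM in KO 26, 21, 73, 01 and 03. In WT 65, 67, 73, 77 and 83 it was at 32.3, 28.5, 19.7, 24.3 and 19.9 FPKM. All 5 KO mice were below all 5 WT mice, with KO 73 lowest and WT 65 highest. The means were 12.2 ± 3.34 FPKM in KO and 24.9 ± 5.47 FPKM in WT, which on the log2(FPKM + 0.1) scale is a difference of -1.05 (SE 0.22, n = 5 each). These values rested on 107 to 299 reads per KO library and 351 to 569 reads per WT library. In whole spleen, fewer cells that express a gene and less RNA per cell cannot be told apart, here and in all that follows.

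Across all 21296 genes tested, 0.563% had all KO mice below all WT mice and 0.549% had all KO mice above all WT mice. Of the 10 members, 1 had the first pattern (Hspb1) and 0 the second. An unadjusted p under 0.05 in the limma fit was seen for 3.03% of all genes in the lower direction and 2.62% in the higher direction, and for 1 member (Hspb1, lower) and 0 members. After Benjamini-Hochberg adjustment over all genes, 0.0704% of genes and 0 of the 10 members passed 0.05, both in limma on log2 FPKM and in limma voom on the recovered reads. Since Hspb1 was chosen for this contrast, its place among these counts is no evidence of its own.

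Hspa1a and Hspa1b encode nearly the same protein, the HSP70 that cells make upon heat. Hspa1b was at 3.63, 1.248, 1.14, 0.939 and 2.65 FPKM in KO 26, 21, 73, 01 and 03 and at 2.65, 1.29, 2.999, 6.24 and 5.49 FPKM in WT 65, 67, 73, 77 and 83. The groups overlapped: KO 26 was above 3 of the WT mice, and WT 77 and WT 83 were above every KO mouse. The log2 fold change was -0.91 (SE 0.47), close to the SD between mice of a genotype, which was 0.84 on the same scale.

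Hspa1a was at 1.34, 0.555, 0.368, 0.436 and 0.853 FPKM in the KO mice and at 0.631, 0.583, 0.664, 2.01 and 1.71 FPKM in the WT mice, in the same order of animals. KO 26, WT 77 and WT 83 were the highest of their groups, as they were for Hspa1b. The log2 fold change was -0.54 (SE 0.42). The transcripts are 99.14% identical over 2200 aligned bases, so that reads which match both may have been split or dropped, and the level of each gene is uncertain. Reads in the 2225 bases that Hspa1a shares with Gm20481 may also have been left out of its count. With the values of Hspa1a and Hspa1b summed, the log2 fold change was -0.84.

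Hspa8 was at 533, 266, 350, 300 and 338 FPKM in KO 26, 21, 73, 01 and 03 and at 396, 347, 403, 511 and 460 FPKM in WT 65, 67, 73, 77 and 83. KO 26 was above all other mice of either group, while the other 4 KO mice reached at most 350 FPKM. The log2 fold change was -0.27 (SE 0.18).

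Hsph1 was at 25.8, 6.48, 10.5, 10.3 and 8.96 FPKM in the KO mice and at 16.8, 10.6, 13.5, 26.03 and 19.4 FPKM in the WT mice, in the same order. KO 26 and WT 77 were level with each other and above the rest of their groups, and the other 4 KO mice were below all 5 WT mice. The log2 fold change was -0.58 (SE 0.35), and it was -0.88 without KO 26 and -0.39 without KO 21.

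Bag3 and Dnajb1, the remaining cochaperones, had higher means in KO by small amounts. Bag3 was at 7.11 ± 0.668 FPKM in KO and 6.75 ± 0.568 FPKM in WT, with a log2 difference of 0.07 (SE 0.09). It varied less between mice than the other members: its highest mouse was 1.31 times its lowest, and its residual SD of 0.13 on the log2 scale stood at percentile 9.82 of all genes tested, against percentile 79.6 for Hspa1b and 53.7 for Hspb1. Dnajb1 was at 16.1 to 35.1 FPKM in KO and 13.2 to 32.7 FPKM in WT, with a log2 fold change of 0.13 (SE 0.25). Its order among the mice differed from that of Hsph1 in the KO group, where KO 73 was highest and KO 26 was above only KO 21.

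Hsp90aa1, Hspd1 and Hspe1 had nearly equal means in both genotypes. Hsp90aa1 was at 156 ± 49.99 FPKM in KO and 161 ± 49.4 FPKM in WT, a log2 fold change of -0.06 (SE 0.27). Hspd1 was at 111 ± 27.6 and 110 ± 23.9 FPKM, a log2 fold change of 0.01 (SE 0.20), and Hspe1 at 75.0 ± 16.4 and 76.3 ± 9.56 FPKM, a log2 fold change of -0.04 (SE 0.15). Hspd1 has a processed pseudogene on chromosome 11, Hspd1-ps3, whose 1722 bases are 98.95% identical to it and which was listed at 4.17 FPKM, so reads of Hspd1 may be counted there.

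Over the 10 members, 7 had a lower and 3 a higher mean log2 value in KO. The median of their log2 fold changes was -0.17, and -0.06 without Hspb1, beside -0.0046 over all genes tested.

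Around the members, the other heat shock genes lay evenly on both sides of no change. Of 81 other heat shock genes, from small heat shock proteins to the TRiC chaperonin, 79 passed the filter of a mean of 0.1 FPKM; 38 were higher and 41 lower in KO, and the median of their log2 fold changes was -0.0047. In limma, 0 of the 79 passed the adjusted threshold, 3 were higher at an unadjusted p under 0.05 (Hspa1l, Pfdn1 and Bag6) and 1 was lower (Hspb7); limma voom also gave 0 after adjustment, with 2 higher and 2 lower. Without KO 26 the unadjusted counts were 1 higher and 6 lower, and without WT 73 or WT 83 they were 1 and 2. These counts stand beside the shares of all genes given above.

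Among the other small heat shock proteins, the family of Hspb1, 4 were higher and 4 lower. Hspb7, known from heart and muscle, was at 0.838 ± 0.173 FPKM in KO and 1.49 ± 0.376 FPKM in WT, a difference of -0.75 in log2 that did not pass adjustment (limma, adjusted p = 0.53). Hspb2 was at 0.588 ± 0.291 and 0.470 ± 0.426 FPKM, a log2 fold change of 0.67. Hspb3 had no reads in any library.

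Among the other HSP70 and HSP110 genes the extremes were Hspa1l, which lies beside Hspa1a and Hspa1b and is best known from testis, with a log2 fold change of 0.92 at 0.345 and 0.153 FPKM, and Hspa12a with -0.09. Hspa1l did not pass adjustment (limma, adjusted p = 0.84). Among the J-domain proteins they were Dnaja1, an HSP70 cochaperone of the cytosol (-0.27), and Dnaja4 (0.12). Among the HSP90 genes and cochaperones, 11 of 14 had lower means in KO, from Fkbp5, an immunophilin induced by glucocorticoids (-0.38), to Stub1, the ubiquitin ligase CHIP (0.13).

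Among the BAG genes and exchange factors the values ran from Bag5 (-0.10) to Bag2 (0.17), and Bag6 was at 31.6 ± 0.920 FPKM in KO and 28.4 ± 1.13 FPKM in WT. TRiC and prefoldin, which fold actin and tubulin, ran from Pfdn5 (-0.15) to Pfdn1 (0.29), with 7 of 14 members higher. Of the other mitochondrial chaperones and proteases 9 of 11 were higher, from Yme1l1 (-0.01) to Dnaja3 (0.17). None of these passed the adjusted threshold.

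The factors that drive the response were measured as well. Hsf1, its main activator, was at 6.36 FPKM in KO and 6.52 FPKM in WT, a log2 fold change of -0.04. Hsf2 was at 0.929 and 1.03 FPKM (-0.17) and Hsf4 at 1.17 and 1.38 FPKM (-0.22). The mRNA of Hsf1 does not report on its activity, which is set on the protein.

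**Figure D2:**
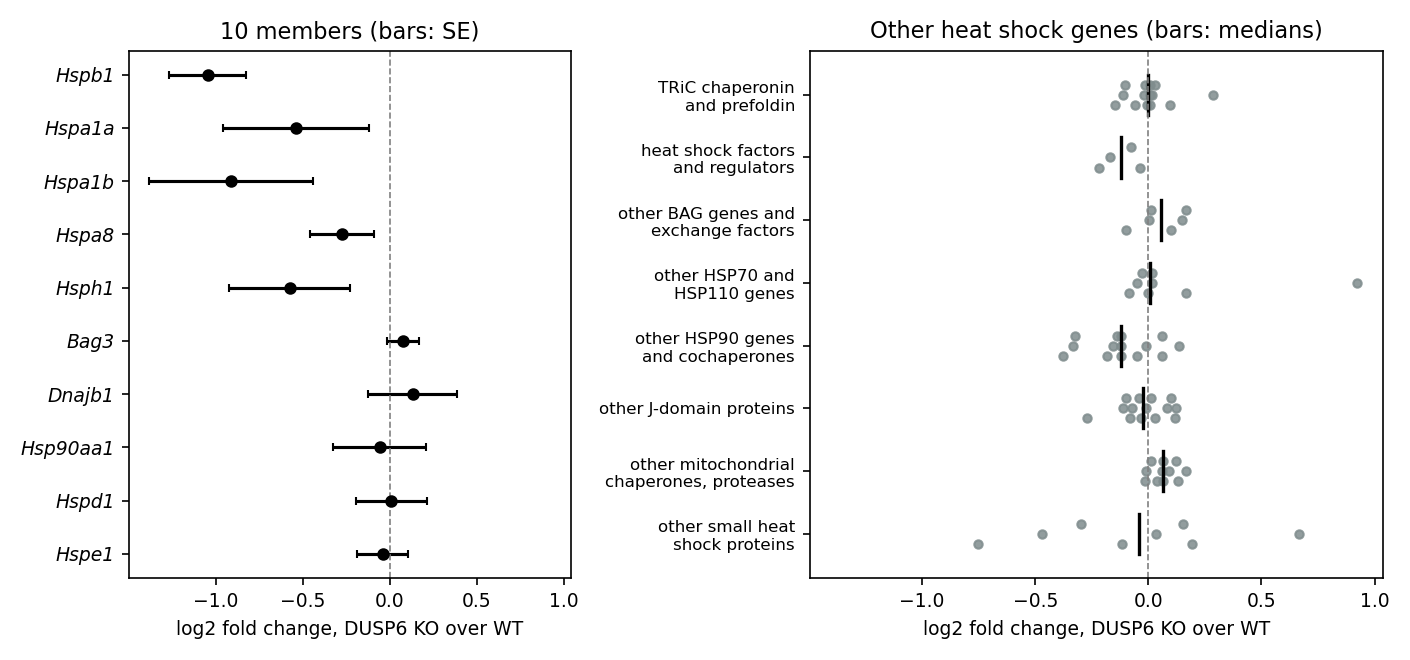
Log2 fold change of DUSP6 KO over WT on the log2(FPKM + 0.1) scale for the 10 members (left, bars show SE) and for 79 other heat shock genes in 8 lists (right, 1 point per gene, black bars at the medians). Hspb1 at -1.05 lies lowest of the members, and the list medians on the right all lie between -0.12 and 0.07.

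Chaperones of the endoplasmic reticulum (ER), which belong to the unfolded protein response and not to the HSF1 response, are given beside the heat shock genes. Of 16 such genes 14 had lower means in KO and 7 had an unadjusted p under 0.05, and 0 passed adjustment; the median of their log2 fold changes was -0.19. Creld2 was at 28.5 ± 4.29 FPKM in KO and 41.0 ± 8.21 FPKM in WT, and Hsp90b1, the HSP90 of the ER, at 102 ± 10.1 and 126 ± 15.9 FPKM. Plasma cells, whose secretion needs these chaperones, had 6 of 8 markers lower and 2 higher, with -0.16 as the median log2 fold change. Their markers summed to 505 to 758 FPKM in KO and 483 to 981 FPKM in WT. Xbp1, at 47.4 ± 8.24 and 67.02 ± 10.3 FPKM, had the largest difference of the list. The part of plasma cells in the ER chaperone values was not tested.

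Genes that are induced within minutes of handling or stress were also set beside the members. Of 20 immediate early genes 10 were higher and 10 lower, and Fos (4.47 ± 2.20 against 2.08 ± 0.210 FPKM) and Dusp1 (21.01 ± 4.72 against 13.1 ± 1.69 FPKM) had all KO mice above all WT mice. Over all 21296 genes tested, 0.549% had that pattern. Of 19 other stress-induced genes, 11 were higher, among them Txnrd1 and Cdkn1a at an unadjusted p under 0.05. None of them passed adjustment over all genes. What part a stress at dissection has in the members' levels was not tested. Whether Fos and Dusp1 differed through the deletion of Dusp6 or through such a stress was not tested either.

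Cell types that are known to be rich in Hspb1 were checked with markers. Smooth muscle and contractile markers summed to 136 to 283 FPKM in KO and 200 to 249 FPKM in WT, with 0 of 10 past an unadjusted 0.05 and -0.10 as the median of their log2 fold changes. Fibroblast markers summed to 70.5 to 104 and 69.5 to 92.1 FPKM, with 2 of 10 higher (Dpt and Pdgfrb) and 3 lower (Fmod, Lum and Vcan) at that p. Mesothelial markers, which are low throughout, summed to 2.71 to 5.96 FPKM in KO and 3.76 to 15.2 FPKM in WT, with 7 of 8 lower in the mean and Krt19 past an unadjusted 0.05. Endothelial markers summed to 73.3 to 102 FPKM in KO and 63.8 to 95.2 FPKM in WT. Of 8 endothelial genes 5 were higher and 3 lower, with 0.15 as the median log2 fold change. Stab2 and Tek were higher at an unadjusted p under 0.05 (limma), and 0 were lower at that p. The part of these cell types in the Hspb1 values was not tested.

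Neutrophil markers had lower means in KO, as Hspb1 had, with 10 of 10 lower and 7 of 10 at an unadjusted p under 0.05; they summed to 556 to 1903 FPKM in KO and 1069 to 4953 FPKM in WT, and their part in the difference of the members was not tested. The highest of these sums was in WT 77. Markers of the exocrine pancreas summed to 15096 FPKM in WT 67 and 192 FPKM in WT 65 and to at most 26.2 FPKM in the other 8 libraries, and Prss1 of that list had no reads in any library. Those 2 libraries had the highest Hspb1 of all 10. Without WT 67 the log2 fold change of Hspb1 was -0.99, without WT 65 it was -0.95, and without both, an alternative chosen after the values were seen, it was -0.84.

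B cell, T cell and red pulp macrophage markers, which define spleen, were present in every library. B cell markers summed to 629 to 1242 FPKM in KO and 711 to 1608 FPKM in WT, T cell markers to 103 to 204 and 132 to 185 FPKM, and macrophage markers to 524 to 886 and 565 to 720 FPKM.

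Whether the members vary together from mouse to mouse was then asked within genotypes, a question that the choice of the genes by their genotype difference did not use. For each mouse the deviation from its group mean was taken on the log2(FPKM + 0.1) scale. Of the 45 pairs of members, 39 had a positive Pearson correlation over the 10 mice. By exact permutation of the mice within groups (two-sided, Benjamini-Hochberg over 45 pairs) 6 pairs passed 0.05, and 3 of these also passed with Spearman's rho. The count was 3 without KO 03, WT 67, WT 73, WT 77 or WT 83, each left out alone, and 13 after median centring of the libraries. The share of pairs that pass among all genes was not computed.

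Hsp90aa1 and Hspd1, a cytosolic and a mitochondrial chaperone encoded on different chromosomes, followed each other most closely. Their r was 0.99 and rho 0.99, both with an adjusted p of 0.0031 by exact permutation, which rests on the smallest p that these permutations can give (6.9e-05). Without the 2 mice farthest from the median of Hsp90aa1, r was 0.99. In KO 26, 21, 73, 01 and 03 the deviations of Hsp90aa1 were 0.44, -0.68, 0.40, 0.23 and -0.40, and those of Hspd1 were 0.35, -0.53, 0.25, 0.21 and -0.29.

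Hspa8 and Hsph1, an HSP70 and its exchange factor, had r = 0.96 (adjusted p = 0.0094, exact permutation) and rho = 0.85 (adjusted p = 0.063), with r = 0.87 without the 2 farthest mice. Hsph1 also correlated with Hspd1 (r = 0.82, adjusted p = 0.040, rho = 0.88, adjusted p = 0.022) and with Hsp90aa1 (r = 0.80, adjusted p = 0.040, rho = 0.90, adjusted p = 0.020); without the 2 farthest mice these were r = 0.88 and r = 0.84. Hspa1b correlated with Hspa8 (r = 0.81, adjusted p = 0.030, rho = 0.82, adjusted p = 0.065, r = 0.76 without the 2 farthest mice). Values of this size were not particular to heat shock genes. By r with Hsp90aa1, Hsph1 stood at rank 1322 of 13421 genes, and by r with Hspd1 at rank 1027. By r with Hsph1, Hspd1 stood at rank 50 and Hsp90aa1 at rank 61.

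Hspa1a and Hspa1b had r = 0.92 (adjusted p = 0.0094, exact permutation) and rho = 0.83 (adjusted p = 0.063), with r = 0.88 without the 2 farthest mice. Reads that match both genes may have been split between these values or dropped. Hspd1 and Hspe1, which share their promoter DNA and encode the barrel and the lid of the mitochondrial folding chamber, had r = 0.74 and rho = 0.71, which did not pass (adjusted p = 0.082 and 0.14, exact permutation), with r = 0.63 without the 2 farthest mice.

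Hspb1 had no correlation past the threshold. Its 9 correlations ran from -0.64 with Dnajb1 to 0.24 with Bag3, with 0.15 as the lowest adjusted p (exact permutation). With Hspa1a, Hspa1b, Hspa8, Hsph1, Hsp90aa1, Hspd1 and Hspe1 its r was 0.18, 0.09, -0.06, -0.02, -0.32, -0.35 and 0.09. Bag3 had no pair past the threshold either. Among the 28 pairs without Hspb1 and Bag3, a split made after the values were seen, r ran from 0.30 to 0.99 with a median of 0.73. A miss of the threshold with 10 mice does not show that Hspb1 varies independently of the others.

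**Figure D3:**
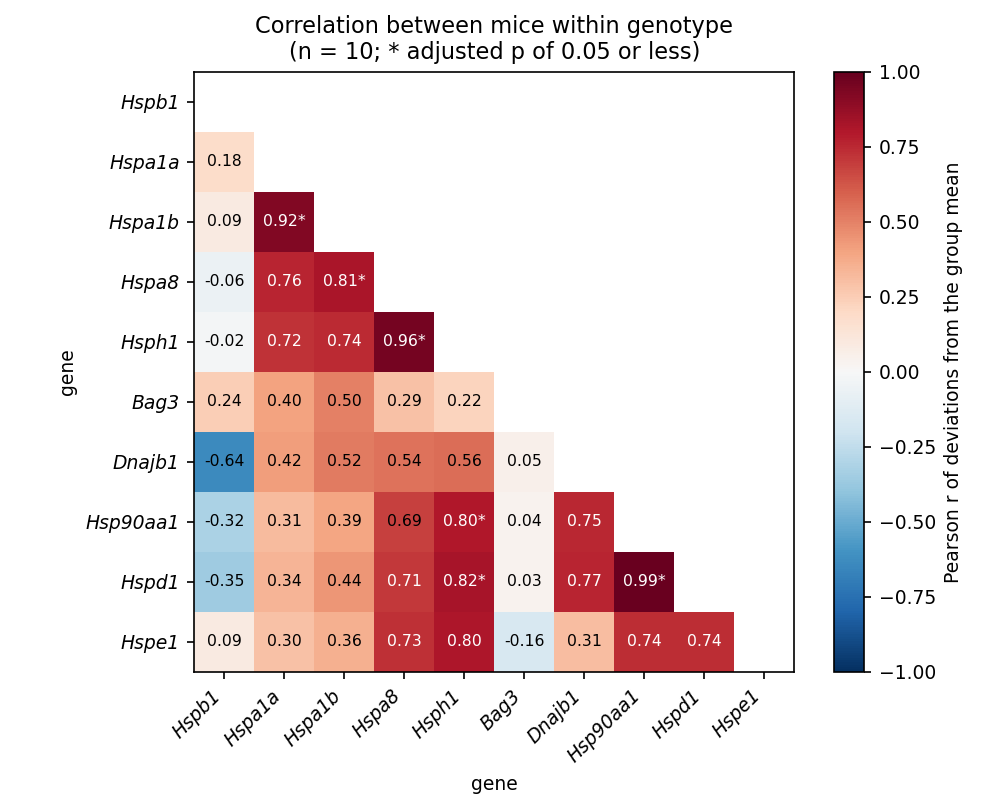
Pearson correlation of deviations from the genotype mean between each pair of the 10 heat shock genes over 10 mice, as a colour scale from -1 to 1, with an asterisk on the 6 pairs with an adjusted p of 0.05 or less by exact permutation. The Hspb1 column (r from -0.64 to 0.24) and the Bag3 pairs hold no asterisk, and the remaining pairs are all above 0.

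The mice behind these correlations were found in both genotypes. Of the 8 members other than Hspb1 and Bag3, 7 were above the group mean in KO 26, in WT 77 and in WT 83, and 0 were above it in KO 21, WT 67 and WT 73. The median deviation of the 8 genes was 0.54 in KO 26 and 0.59 in WT 77, against -0.46 in KO 21 and -0.60 in WT 67. Hspb1 deviated by 0.29 in KO 26, -0.01 in WT 77, 0.34 in KO 21 and 0.22 in WT 67, so that it was above its group mean in both of the mice in which the others were lowest.

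Markers of erythroid cells, which the red pulp of mice holds, varied between the same mice. They summed to 67628, 19192, 100350, 45957 and 29356 FPKM in KO 26, 21, 73, 01 and 03 and to 34399, 23415, 47050, 47696 and 24815 FPKM in WT 65, 67, 73, 77 and 83. The lowest sum of each group was in KO 21 and WT 67, where the 8 members were lowest, and the highest in KO 73 and WT 77; WT 73 had a high sum with 0 of the 8 members above the group mean, and WT 83 a low sum with 7 above it. Haemoglobin genes took 1.74% of reads in KO 21 and 1.94% in WT 67, beside 5.73% in KO 26 and 3.86% in WT 77. Of the 9 erythroid genes tested, 8 had higher means in KO and 0 had an unadjusted p under 0.05; Ahsp of that list was not analysed here. Depth was 17875943 reads in KO 26, 16145542 in WT 77, 17298955 in KO 21 and 18422147 in WT 67. The part of erythroid cells or of depth in the shared deviations was not tested.

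Without KO 26 and WT 77, the mice with the highest Hsph1 in each group, Hsp90aa1 with Hspd1 had r = 0.99 (n = 8, adjusted p = 0.078, exact permutation), Hspa1a with Hspa1b had r = 0.86 and Hspa8 with Hsph1 had r = 0.84. No pair passed the threshold then; with 8 mice the smallest exact p is 0.0017, and a single pair at that value has an adjusted p of 0.078. This alternative was chosen after the values were seen.

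**Figure D4:**
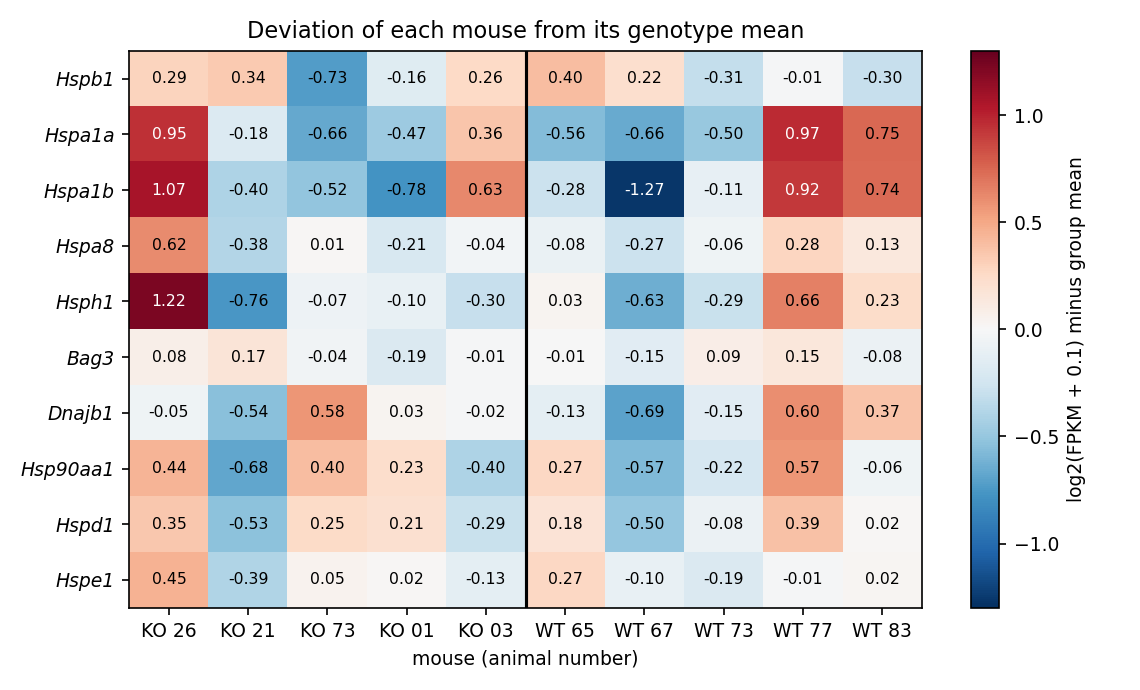
Deviation of each mouse from its genotype mean on the log2(FPKM + 0.1) scale, with members in rows and the 5 DUSP6 KO and 5 WT mice in columns, coloured from blue (below) to red (above). KO 26 and WT 77 are red and KO 21 and WT 67 blue in most rows, while the Hspb1 row has its lowest value in KO 73 (-0.73) and its highest in WT 65 (0.40).

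Genes whose deviations were most like those of a member were ranked by Pearson's r over the 10 mice, among those averaging 1 FPKM or more; these values are a description, since the 5 best of 13421 genes are high by selection. For Hspd1 they were Hsp90aa1 (0.99), Noa1 (0.98), 1700006J14Rik (0.98), Ppid, an HSP90 cochaperone (0.98), and Mthfd1 (0.98), so that another heat shock gene on the list stood first. For Hspa1b they were Ammecr1l (0.98), Ubash3a (0.92), Dnaja1 (0.92), the pseudogene Gm8172 (0.91) and Cxcr4 (0.90), with Hspa8 at rank 34 (Hspa1a, under 1 FPKM, was not ranked). For Hspb1 they were Tut1 (0.97), Tgds (0.96), Ticam1 (0.95), Cavin3 (0.95) and Twist1 (0.94), none of which is a chaperone, and the nearest other member among the genes ranked was Bag3 at rank 4962.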

How the data were processed

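The authors deposited FPKM values with a gene length for 54532 genes. Per the labels and the study's methods, paired-end reads were aligned with Hisat2 and counted with featureCounts 1.5.0-p3, and FPKM was computed from count and length. The submitters' processing notes name hg38, but the identifiers are of mouse, and 98.1% of genes have the coordinates of GENCODE M21 (GRCm38). Whether counting used the strand is not given in the sources used here.

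Dividing FPKM times length by 1 constant per library gave whole reads (100% of values within 0.001 read). The library size behind that constant was 0.949 to 1.12 times the sum of these reads, so the deposited scale carries a library factor. The study's count test was not run, although whole reads were recovered. The study lists Hspb1 as significantly lower in KO by its own test, and that call was not retested with the same method. limma 3.58.1 (R 4.3.3; lmFit, eBayes with trend) was fitted to log2(FPKM + 0.1) for 21296 genes with a mean of 0.1 FPKM or more, adjusted by Benjamini-Hochberg (threshold 0.05), with voom on the recovered reads as an alternative. On data simulated for KO against WT (21448 genes), the fit recovered 75 of 95 changes of 4-fold and 23 of 98 of 2-fold, with 9 false calls. Correlations and orders used exact permutation (Python 3.11.15, numpy 2.4.6), and transcripts were aligned with blastn 2.17.0. p-values measure the spread between mice.

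The members, lists and tests were chosen with earlier results of these data known. Named were the members, Hsf1, Hsf2, the genes of largest positive and negative fold change in each list of other heat shock genes, the 5 genes most like Hspb1, Hspa1b and Hspd1, and context or marker genes with an unadjusted p under 0.05; Bag6, Hspb3, Prss1 and the genes in the observations at the end were added with their values in view. Where a symbol had several rows, the row with the highest mean was used.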

Additional observations from a re-analysis of the deposited data

Results flagged for a closer look

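In 68 groups of 5 mice (members and gene lists, KO and WT), 4 single libraries lay so far from the rest of their group that the gap was above 0.71 of the group's range, a limit that chance passes in about 1 in 20 groups. Hsph1 was at 25.8 FPKM in KO 26 and at 6.48 to 10.5 FPKM in the other KO mice. The other HSP70 and HSP110 genes summed to 80.2 FPKM in WT 77 and to 68.4 to 71.5 FPKM in the other WT mice. Exocrine pancreas markers summed to 15100 FPKM in WT 67 and to 13.4 to 192 FPKM in the other WT mice. Plasma cell markers summed to 505 FPKM in KO 01 and to 689 to 758 FPKM in the other KO mice.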

How the results depend on the processing

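Each result was recomputed under up to 25 settings, 10 of which left out 1 library. Of 581 values, 551 were called unchanged. A count was so called if it stayed within a fixed ratio of the main count. A fold change was so called if it moved by less than the spread between mice. For a correlation, the sign and the side of the threshold had to be kept. Hspb1 was lower in KO in every setting that gave a value (log2 fold change -1.13 to -0.84), as were Hspa1a, Hspa1b, Hspa8 and Hsph1, and Bag3 was higher in every setting, while the sign of Dnajb1, Hsp90aa1, Hspd1 and Hspe1 changed with single libraries or with the scaling. Over all genes, 8 were higher and 7 lower after adjustment; array weights gave 13 higher, a minimum of 1 FPKM gave 4 lower, and leaving out single libraries gave 6 to 21 higher and 4 to 13 lower, with 21 and 13 without KO 21 and 4 lower without WT 83. Without KO 26 and WT 77, 5 were higher. Of the other heat shock genes, 3 were higher and 1 lower at an unadjusted p under 0.05; voom gave 2 lower, leaving out single libraries 1 to 3 higher and 1 to 6 lower (6 without KO 26), and the counts were 1 higher and 3 lower both without KO 26 and WT 77 and without WT 65 and WT 67. Of 45 correlations 6 passed; median centring gave 13, leaving out single libraries 3 to 8 (3 without KO 03, WT 67, WT 73, WT 77 or WT 83), and 0 passed with 8 mice, without KO 26 and WT 77 or without WT 65 and WT 67. Fewer mice also raise the smallest p. No other cause of these changes was tested. The 7 neighbours in the order of levels passed in every setting run. No paired analysis was possible because the groups share only 1 animal number. Hspa1a rested on 16 to 99 reads per library, which limits its precision.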

Other observations

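Among the genes most like Hsph1 and Hspa8 from mouse to mouse were 2 cochaperones of HSP90, Ahsa1 and Stip1. Ahsa1, which stimulates the ATPase of HSP90, was the gene most like Hsph1 of 13421 genes ranked (r = 0.97), and Stip1, which joins HSP70 to HSP90, came after Hspa8 (r = 0.95). For Hspa8 the first was Hsph1 (r = 0.96), followed by Dynll1 (0.94), Ahsa1 (0.93) and Stip1 (0.92). Dnaja1 stood among the 5 genes most like Hspa1a (0.91). These genes were named after their values were seen, over 10 mice, and high values are selected by the ranking. The other HSP90 cochaperones were ranked in the same way. Of these, Ppid was among the 5 genes most like Hspd1, and nothing is read for the rest.

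Bag3, which varied least of the members, was most like F630028O10Rik (0.93), Gsr, glutathione reductase (0.91), and C5ar1, the receptor of the complement fragment C5a (0.91). Hspe1 was most like Eif3g (0.97) and Cfdp1 (0.96), and Hspd1 was not among the 5 genes most like it.

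Of 14 annotated pseudogenes of Hspb1, Hsp90aa1, Hspd1 and Hspe1, Hspd1-ps3 had the highest level, with 4.27 FPKM in KO and 4.07 FPKM in WT. The pseudogene of Hspb1, Hsp25-ps1 on chromosome 13, was at 0.0433 and 0.0361 FPKM.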
